A study of Arabidopsis thaliana with 6 samples.

Results

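Small heat shock proteins were followed by compartment in Arabidopsis root protoplasts that carried the GARP transcription factor HRS1, whose own gene responds to nitrate, fused to the glucocorticoid receptor. The group holds the 8 genes of this family that the array annotation names alone on a probe set and that had been picked from an earlier look at these arrays, out of 13286 genes named in this way. Each was assigned here to 1 compartment, and protein location was not measured. In this grouping 4 belong to the cytosol (AT2G29500, AT1G53540, AT1G54050 and AT4G21870) and 1 to the peroxisome (AT5G37670). The mitochondrion has 2 (AT5G51440 and AT1G52560) and the endoplasmic reticulum 1 (AT4G10250, named ATHSP22.0 in the gene table). Their values with and without dexamethasone (DEX) were known when they were picked, so the values of that comparison are given here as a description. The counts of these genes past the limma threshold come from a fit over all probe sets and describe the values by which they were picked, so they are no test of these genes and support nothing.

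All 6 samples were root protoplasts that had been transfected with a plasmid from which the GR-HRS1 fusion is made under the CaMV 35S promoter, a promoter active in most plant cells, so that HRS1 was made from this transgene in every group. All received nitrate and 35 µM cycloheximide, an inhibitor of protein synthesis. In 3 samples 10 µM DEX, a synthetic glucocorticoid that lets the fusion enter the nucleus, was added (+DEX), and in 3 it was not (−DEX). Cells that carried the plasmid were sorted by its red fluorescence, and 1 ATH1 array was hybridised per sample, so that the number of arrays limits the precision. DEX-treated protoplasts without HRS1 were not analysed here, and an effect of DEX itself cannot be told apart from one of HRS1. The labels do not say whether the replicates came from separate cultures, so their spread may be technical.

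Small heat shock proteins share a conserved alpha-crystallin domain, build large oligomers and hold unfolding proteins in a soluble state, from which HSP70, its J-domain partners and HSP100 can refold them. Plants are known for a large family, with members for the cytosol and for nearly every organelle, all encoded in the nucleus. Most are hardly expressed in unstressed vegetative tissue and are induced by heat shock factors during heat or other stress that unfolds proteins.

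Of the 15 root cell type markers written down for a check of the tissue, 2 had a value, EXPA7 of root hairs and AT1G62500 of the cortex. Both lay on every array under the 95th percentile of 27 probe sets for Bacillus RNA, which mark the level of signal without a plant transcript (called the control percentile below, at a log2 of 5.07 to 6.59). The arrays therefore gave no marker signal for the root label. RCA, a leaf photosynthesis gene and the only one of 12 such markers with a value, lay above the control percentile on 1 of 3 −DEX and 2 of 3 +DEX arrays, with means of 5.57 and 5.65. The array of −DEX replicate 1 stood apart, with a mean Spearman correlation of 0.708 with the other arrays, against 0.777 to 0.822 for the others. Its 3′ to 5′ ratio was the highest for ubiquitin, at 18.6 against 5.45 to 8.85, and the lowest for actin, at 0.283 against 1.39 to 7.58. Values without this array are given below for some of the results, not for each gene. In bulk samples, fewer cells of a type and less RNA per cell cannot be told apart.

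Without DEX, 7 of the 8 small heat shock protein genes lay above the control percentile on all 3 arrays, in the cytosol, the peroxisome, the mitochondrion and the endoplasmic reticulum alike. In all 7, the values of the groups did not overlap, and those with DEX were the lower ones. The differences ran from −2.32 for the cytosolic AT1G53540 to −5.28 for the mitochondrial AT1G52560 on the log2 scale, with a median of −3.88 over the 7 and −3.32 over all 8, against −0.10 over all probe sets tested. In the limma fit over all probe sets, 6 of the 8 had an adjusted p under 0.05 with a lower value, where 0.119% of all probe sets did. Over all probe sets, 7.55% were lower and 4.99% higher with groups that did not overlap. With 1 −DEX array left out, 3 of the 8 passed without replicate 1, 0 without replicate 2 and 5 without replicate 3. Over all probe sets, 12, 0 and 46 passed as lower in these fits. With 1 +DEX array left out, 2 of the 8 passed without replicate 1, 4 without replicate 2 and 1 without replicate 3. Here 3, 24 and 4 of all probe sets passed as lower. The median over the 7 stayed between −3.49 and −4.23 in all of these fits.

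**Figure D1:**
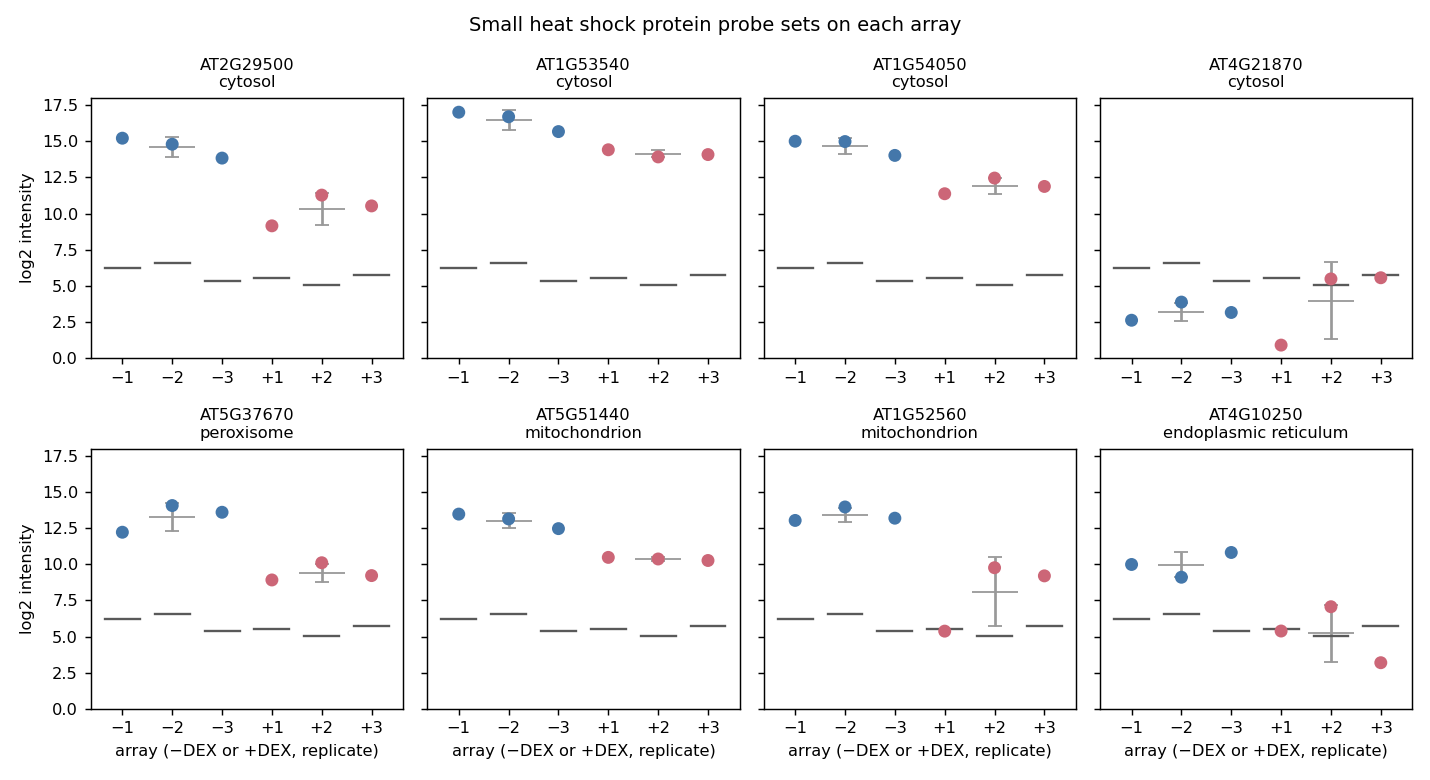
Log2 intensity (vertical axis) of the 8 genes on each of the 6 arrays (horizontal axis, −DEX replicates in blue and +DEX replicates in red), with the group mean ± SD in grey and the control percentile of each array as a short dark line. AT4G21870 sits at or under the control percentile on nearly every array, while the other 7 lie above it on all −DEX arrays and are lower on all +DEX arrays.

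The cytosolic genes cover 3 classes of the family. AT2G29500, of class I, which forms the bulk of the heat-induced small heat shock proteins, read 15.22, 14.80 and 13.84 without DEX. With DEX it read 9.15, 11.28 and 10.53. The groups did not overlap, and the lowest −DEX array stood 2.56 above the highest +DEX array. Its mean went from 14.62 ± 0.71 to 10.32 ± 1.08 (SD, n = 3 each), a difference of −4.30 ± 0.52 (SE), or 19.7-fold lower. As deposited, this probe set went from 34173, 23636 and 16078 intensity units to 563, 2885 and 1574. The array of +DEX replicate 1 was the lowest of its group, and without it the difference was −3.71.

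AT1G53540, the other class I gene, read 17.01, 16.70 and 15.67 without and 14.41, 13.92 and 14.08 with DEX. On each −DEX array it was the brightest of all 22746 probe sets, and with DEX it still stood at the 99.2nd to 99.3rd percentile of its array. Its difference of −2.32 ± 0.34 (SE), from 16.46 ± 0.70 to 14.14 ± 0.25 (SD, n = 3 each), was the smallest of the 7. AT2G29500 in contrast dropped from the 99.2nd to 99.6th percentile of its array to the 78.7th to 94.1st. Whether signal near the top of the scale was compressed was not tested.

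The 2 class I genes thus had differences of unequal size. The log2 distance between their probe sets was nearly constant without DEX, at −1.80, −1.90 and −1.83 (AT2G29500 minus AT1G53540), and was −5.26, −2.64 and −3.55 with DEX. The distance changed by −1.97 ± 0.77 (SE over the arrays). It describes the change within this class and not a difference in transcript level, since 2 probe sets bind their targets with unequal strength.

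AT1G54050, of class III, read 15.00, 14.98 and 14.02 without DEX and 11.37, 12.46 and 11.88 with it. The groups were 1.57 apart at their nearest values, and the spread was alike in both, at SDs of 0.56 and 0.54. Its difference was −2.77 ± 0.39 (SE), or 6.81-fold lower.

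AT4G21870, the remaining cytosolic gene and a more distant member of the family, had no signal above the control percentile without DEX. Its −DEX values of 2.62, 3.88 and 3.16 all lay under the control percentile, and of its +DEX values of 0.90, 5.48 and 5.56 the second lay above it. The groups overlapped. Its difference of 0.76 ± 1.45 (SE) is one of background, and with values floored at the highest control percentile it was 0.

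AT5G37670 is the small heat shock protein of the peroxisome, the organelle of fatty acid oxidation and peroxide breakdown. It read 12.21, 14.06 and 13.59 without and 8.91, 10.10 and 9.21 with DEX. Every +DEX value lay at least 2.11 below the −DEX values, and −DEX replicate 1 was the lowest of its group, unlike in the 3 cytosolic genes with signal above the control percentile. The difference was −3.88 ± 0.53 (SE), or 14.7-fold lower, from 13.29 ± 0.96 to 9.41 ± 0.62 (SD, n = 3 each). Without −DEX replicate 1 its difference was −4.42, and the median over the 7 genes was −4.00. AIM1, an enzyme of peroxisomal fatty acid oxidation and the only 1 of 10 listed peroxisomal loci with a value, had a difference of −0.67 ± 0.59 (limma adjusted p = 0.84).

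Of the mitochondrial pair, whose proteins protect the organelle of respiration, AT5G51440 read 13.47, 13.13 and 12.46 without and 10.47, 10.36 and 10.26 with DEX. Its +DEX arrays lay within an SD of 0.11, the narrowest of the 8 genes in that group, and its difference was −2.66 ± 0.41 (SE), or 6.31-fold lower. AT1G52560 read 13.03, 13.96 and 13.18 without and 5.37, 9.76 and 9.19 with DEX. On +DEX replicate 1 it lay under the control percentile of 5.54, whereas on the other +DEX arrays it lay well above it, so that its +DEX SD was 2.39. Its difference was −5.28 ± 0.86 (SE), or 38.9-fold lower, and −3.91 without +DEX replicate 1. With values floored at the highest control percentile it was −4.88.

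AT1G52560 thus had a difference 2.63 ± 1.49 (SE over the arrays) further from 0 than AT5G51440. On +DEX replicates 2 and 3 the distance between the 2 probe sets was 0.60 and 1.06 (AT5G51440 minus AT1G52560), against 5.10 on +DEX replicate 1. On the −DEX arrays it was 0.44, −0.83 and −0.72. The unequal change of the pair was therefore largest on the 1 array where AT1G52560 lay at background.

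ATHSP22.0 (AT4G10250), the small heat shock protein of the endoplasmic reticulum, where secreted proteins fold, read 9.98, 9.10 and 10.81 without and 5.38, 7.06 and 3.19 with DEX. It lay above the control percentile on all −DEX arrays and on 1 of 3 +DEX arrays. The groups did not overlap. The difference was −4.76 ± 0.98 (SE), from 9.97 ± 0.86 to 5.21 ± 1.94 (SD, n = 3 each), but −3.22 with values floored at the highest control percentile, since the lower values of the +DEX arrays are those of background. It was −3.75 without +DEX replicate 3. It was 1 of the 2 genes with an adjusted p at or above 0.05 in the fit, the other being AT4G21870.

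Of 15 listed loci for general chaperones of the endoplasmic reticulum 4 had a value, 2 of them above the control percentile on all 6 arrays, and by limma 0 passed the threshold in either direction, nor did any have an unadjusted p under 0.05. ATERDJ3B, a J-domain partner of the HSP70 of that compartment, differed by 0.15 ± 0.75 (SE; limma adjusted p = 0.98), and AT5G07340, a calnexin that holds glycoproteins during folding, by −0.10 ± 0.72 (limma adjusted p = 0.99). The signs of both turned in some settings, and how far they differ from ATHSP22.0 was not tested. CRT1b, a calreticulin, had means of 6.20 and 6.38 and DER1, of the degradation pathway, of 6.04 and 5.96, each under the control percentile on some arrays of both groups.

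**Figure D2:**
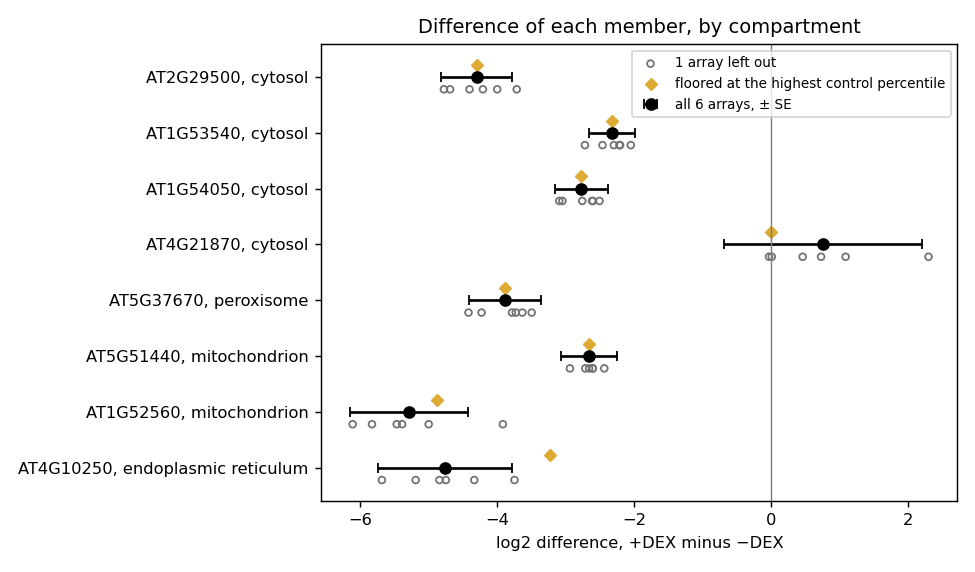
Log2 difference, +DEX minus −DEX (horizontal axis), of each gene, listed with its compartment. Black points are the values from all 6 arrays with their SE, open circles leave out 1 array each, and diamonds are values floored at the highest control percentile, where ATHSP22.0 moves from −4.76 to −3.22 and AT4G21870 to 0.

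The differences were set side by side by compartment. The 3 measurable cytosolic genes ranged from −2.32 to −4.30, the mitochondrial pair from −2.66 to −5.28, and the single genes of the peroxisome and the endoplasmic reticulum had −3.88 and −4.76. The range within the cytosol was thus 1.97 and that within the mitochondrion 2.63, and both took in the value of the peroxisome, while that of the endoplasmic reticulum lay beyond the cytosolic range. Across compartments, AT1G54050 of the cytosol and AT5G51440 of the mitochondrion differed in their change by −0.11 ± 0.36 (SE over the arrays), and AT1G53540 of the cytosol and AT5G51440 by 0.33 ± 0.16. With 1 to 3 measurable genes per compartment, no difference between compartments was tested. The largest differences, −5.28 and −4.76, belong to the 2 genes that had signal at background on some +DEX arrays, and the 5 genes above the control percentile on all 6 arrays had −2.32 to −4.30.

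Within a group the arrays ordered the genes differently. The genes were picked with the values of these arrays known, so the order is given as a description. Among the −DEX arrays, replicate 3 was the lowest for the 3 measurable cytosolic genes and for the mitochondrial AT5G51440, and replicate 1 was the highest for these 4. AT5G37670 and AT1G52560 had replicate 1 as the lowest and replicate 2 as the highest, and ATHSP22.0 had replicate 2 as the lowest and replicate 3 as the highest. Of the 8147 probe sets above the control percentile on all −DEX arrays, replicate 3 was the lowest in 41.6% and replicate 1 the highest in 34.8%. With 4 of 7 genes in each case, neither count is read as particular to these genes.

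Among the +DEX arrays, replicate 1 was the lowest of the group for AT2G29500, AT1G54050 and AT5G37670, and the highest for AT1G53540 and AT5G51440. These are the 5 genes above the control percentile on all +DEX arrays. In the first 3 and in AT1G52560 and ATHSP22.0, +DEX replicate 2 was the highest. Of the 10804 probe sets above the control percentile on all +DEX arrays, replicate 1 was the lowest in 30.3% and the highest in 42.3%, and replicate 2 was the highest in 23.5%. The counts over 5 genes are a description and are not read as particular to them. The deviation of AT1G52560 from its +DEX mean was −2.74 on replicate 1, and that of ATHSP22.0 was −2.02 on replicate 3. The 2 genes whose +DEX arrays agreed most, AT1G53540 (SD 0.25) and AT5G51440 (SD 0.11), also had the 2 smallest differences among the 7. This too is only a description, since the genes were picked with these values known. The widest +DEX SDs of the 7, of AT1G52560 (2.39) and ATHSP22.0 (1.94), belong to the genes with some +DEX values at background.

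**Figure D3:**
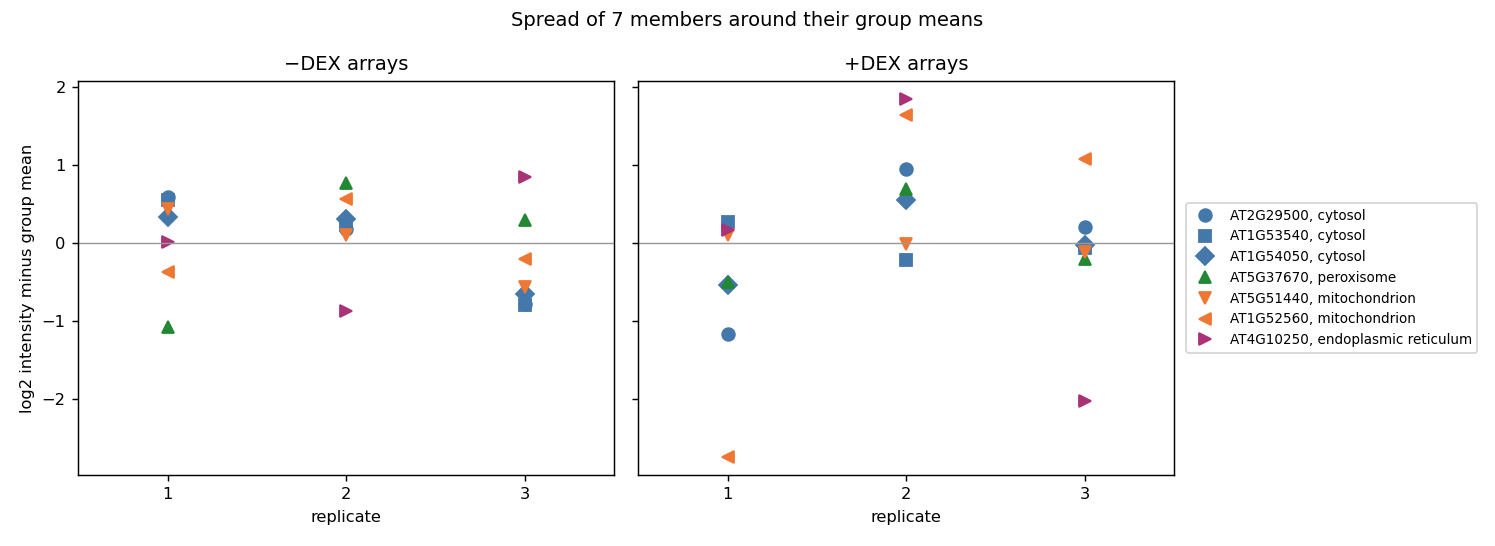
Log2 intensity minus the group mean (vertical axis) of the 7 measurable genes on each −DEX replicate (left) and +DEX replicate (right), with colours for compartments and a shape for each gene. The cytosolic genes and AT5G51440 lie together on the −DEX arrays, with replicate 3 lowest, and the widest deviations are those of AT1G52560 and ATHSP22.0 on the +DEX arrays.

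Of the rest of the family, 20 further loci with a small heat shock or related alpha-crystallin domain were listed, and 6 had a value. Over all 22746 probe sets, 934 were lower and 567 higher by limma at an unadjusted p under 0.05. Of the 6, 0 passed the adjusted threshold and 1 had an unadjusted p under 0.05. This one, the small heat shock protein AT2G19310, read 8.36, 9.0 and 8.54 without and 2.77, 5.58 and 4.41 with DEX, and it lay above the control percentile on 1 of 3 +DEX arrays. Its difference was −4.38 ± 1.02 (SE; limma adjusted p = 0.31), and −2.04 with values floored at the highest control percentile. The related genes AT3G22530 and AT5G54660 were measured above the control percentile on all 6 arrays and differed by only −0.49 ± 0.71 and −0.42 ± 0.81 (SE). AT5G47600 had means of 5.28 and 6.21, and AT2G27140 of 6.07 and 4.23, each at background on some arrays, and AT3G10680 lay under the control percentile on every −DEX array. Over the 6 the median difference was −0.45. The plastid member of the family and the cytosolic class II were not analysed here.

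Of 10 lists of chaperones and related genes, with 118 loci, 24 loci had a value. By limma 3 passed the adjusted threshold as lower and 0 as higher, again beside 0.119% of all probe sets lower. At an unadjusted p under 0.05, 11 were lower and 0 higher, beside 934 and 567 of all 22746 probe sets. All 3 past the adjusted threshold were co-chaperones, where 9 of 15 loci were measured. Of the 9, 8 had a negative difference (median −2.48 over the 9, against −0.10 over all probe sets). AT5G48570, an immunophilin that works with HSP90, fell by 4.56 ± 0.48 in log2 units (SE; limma adjusted p = 0.0038). Fes1A, which exchanges the nucleotide of HSP70, fell by 3.64 ± 0.51 (adjusted p = 0.011). The J-domain protein AT2G20560 fell by 2.83 ± 0.45 (adjusted p = 0.022). These calls were known when the lists were written. Without −DEX replicate 2, 0 of the 24 passed, and 7 were lower at an unadjusted p under 0.05, beside 751 of all probe sets. Without +DEX replicate 1 or +DEX replicate 3 only 1 of the 24 passed, beside 3 and 4 of all probe sets lower. Without −DEX replicate 3 it was 5, beside 46 of all probe sets. It was 2 without −DEX replicate 1 and 4 without +DEX replicate 2, beside 12 and 24 of all probe sets.

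The 2 measured HSP70 genes of the cytosol, which take over unfolded proteins from small heat shock proteins, also read lower with DEX but did not pass the threshold. AT3G09440 differed by −2.39 ± 0.46 and Hsp70-2 by −2.66 ± 0.51 (SE; limma adjusted p = 0.084 each). HSA32, a heat-induced protein of long-term heat tolerance, had means of 8.32 ± 0.53 and 6.26 ± 1.36 (SD, n = 3 each; limma adjusted p = 0.75). Cpn60beta2, a chaperonin subunit of the plastid, differed by 0.52 ± 1.36, with a −DEX replicate 1 that brought the −DEX SD to 3.96. The reference genes PEX4 and AT4G34270 differed by −0.35 ± 0.70 and −0.28 ± 0.61, and AT2G28390 had means of 5.55 and 6.59, below the control percentile on some −DEX arrays. Of the 21 heat shock factors, 4 cytosolic HSP90 genes and 10 mitochondrial chaperones, 0 had a value, so that the regulators of these genes and the mitochondrial partners of AT5G51440 and AT1G52560 were not analysed here.

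**Figure D4:**
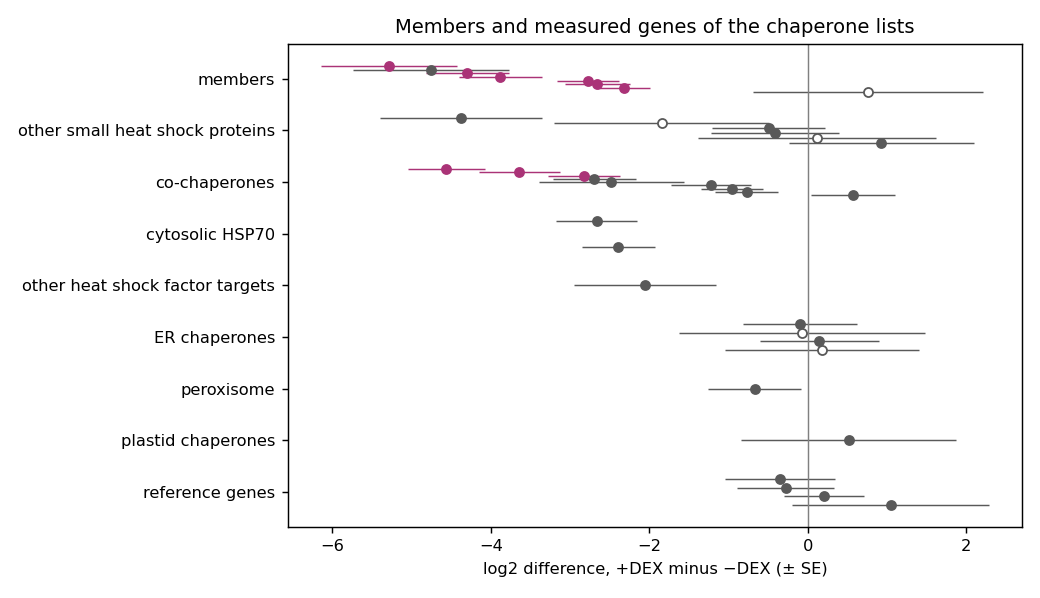
Log2 difference, +DEX minus −DEX (horizontal axis, ± SE), of the 8 genes (the row labelled members) and of the measured genes of each list. Purple marks an adjusted p under 0.05 over all probe sets, and open points mark genes that lay above the control percentile on all arrays of neither group. The 8 genes, the co-chaperones and the cytosolic HSP70 genes lie mostly left of 0, and the endoplasmic reticulum chaperones and the reference genes lie around it.

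The mean profile of the 7 genes, centred on the mean over the 6 arrays, was 1.93, 2.04 and 1.59 without DEX and −2.48, −1.07 and −2.01 with it. Among 4244 other named genes above the control percentile on all −DEX arrays, the 6 nearest to it by root mean square distance over the 6 arrays were AT5G52650 (0.25), AT3G46220 (0.30), AT2G20560 (0.51), AT3G25950 (0.53), Fes1A (0.57) and AT2G19310 (0.57). The 6 include 2 co-chaperones and 1 further small heat shock protein. The profile is that of genes picked for being lower with DEX, so genes near it are lower with DEX by construction, and the distances are a description. AT5G52650, a ribosomal protein gene of the 40S subunit, read 13.31, 13.79 and 12.99 without and 8.63, 10.79 and 9.49 with DEX. In the TAIR10.1 gene table its protein-coding neighbour on one side is AT5G52640, a heat-induced HSP90, and AT3G46220 has AT3G46230, a class I small heat shock protein, next to it. Whether their probe sets pick up RNA of these neighbours was not tested. AT3G25950 had means of 7.77 ± 0.26 and 4.62 ± 1.46 (SD, n = 3 each; limma adjusted p = 0.74). Of the 7 genes themselves, AT2G29500 (0.50) and AT1G54050 (0.52) lay nearest to their common mean, and AT1G52560 (1.34) farthest.

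The neighbours of the 8 genes were compared in turn. For 9 of the 16 sides a gene within 2 places of the small heat shock protein gene had a value. By limma 0 of the 9 passed the threshold (lowest adjusted p = 0.75). Since only 0.119% of all probe sets passed as lower, this is not read as particular to the neighbours. At an unadjusted p under 0.05, 2 were lower and 0 higher, beside 934 lower and 567 higher of all 22746 probe sets. Only AT5G51420, near AT5G51440, lay above the control percentile on all −DEX arrays, with means of 7.36 ± 0.95 and 4.30 ± 3.10 (SD, n = 3 each). AT1G53530, next to AT1G53540, had means of 5.69 and 2.54 and lay above the control percentile on 1 of 3 −DEX and 0 of 3 +DEX arrays. ARLA1A, next to AT5G37670, had means of 4.79 ± 2.78 and 5.89 ± 0.64 (SD, n = 3 each). For AT1G54070, near AT1G54050, they were 7.09 ± 3.40 and 8.30 ± 0.94. Both genes lay above the control percentile on 2 of 3 −DEX and 3 of 3 +DEX arrays. AT4G21880, next to AT4G21870, was the neighbour with the smallest p and the only one whose groups did not overlap, with means of 5.67 ± 1.05 and 2.13 ± 2.03 (SD, n = 3 each; limma adjusted p = 0.75), and it lay above the control percentile on 1 of 3 −DEX and 0 of 3 +DEX arrays. AT4G21865, on the other side of AT4G21870, had means of 4.94 and 5.70, AT2G29510 of 3.55 and 4.36 and AT1G52550 of 3.53 and 3.11, each under the control percentile on some arrays of both groups. AT4G10260, next to ATHSP22.0, lay under it on every array.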

How the data were processed

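The authors deposited 1 linear intensity per probe set and array. Per the labels' protocols, TRIzol was used for extraction and a 3′ IVT kit for labelling with biotin. The sources used here do not say how probes were summarised. From the values, each deposited array has a 2% trimmed mean of 500, and medians run from 66.3 to 92.9. Here the arrays were brought to 1 common median, floored at 1 and put on the log2 scale. Of 22810 probe sets, 64 controls were left out, and 22746 were tested with limma 3.58.1 in R 4.3.3 (group as the only term, eBayes with a variance trend, two-sided, Benjamini-Hochberg at 0.05). With this scaling the median of all differences was −0.10, against 0.090 with the deposited values, and single differences shift with it.

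Names came from the array annotation, matched to TAIR10.1 (13436 probe sets with 1 gene). Groups and replicate numbers came from titles. The genes and lists were chosen with earlier results of these data known. Named were all 8 genes, list genes past the threshold or else the 3 with the smallest p, the 6 nearest profiles and measured neighbours. Further list members were named after their values were seen. Sequence features had been planned, but no sequences were used here. The fit was also run on simulated normal values with known differences planted among the brighter probe sets. That run checks the code and not the calls on these arrays. Alternatives changed the scaling, floor, filter, variance model, weights, replicate block and arrays.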

Additional observations from a re-analysis of the deposited data

How the results depend on the processing

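Over 15 alternatives the 7 measurable genes kept a lower value with DEX each time, which the lack of overlap between groups largely fixes, and the count of higher probe sets was 0 (567 at an unadjusted p under 0.05 in the limma fit). The floor at the highest control percentile was chosen after seeing the data, the other settings when the lists were written. Lower probe sets (27), the 8 genes (6) and list genes (3) past the threshold came to 0 by limma when eBayes had no variance trend, when values were floored at a log2 of 5, and when they were floored at the highest control percentile, where the median over the 7 genes was −3.22. At an unadjusted p under 0.05, 7 of the 8 genes were lower in every setting, a description of the values by which they were picked. Of all 22746 probe sets, 934 were lower at that cut in the main limma fit, and 423 to 1500 were over the settings. Without single arrays the 3 counts past the threshold ranged from 0 to 46, from 0 to 5 and from 0 to 5, with 0 in each case when −DEX replicate 2 was left out. The cause was not tested. No strong pairing by replicate number was seen. Correlations of deviations were 0.022, 0.016 and 0.079 between arrays of the same replicate number, and −0.041 to 0.017 between the others. With the replicate block 33 probe sets, 6 of the 8 genes and 4 list genes were lower past the threshold. Uncalled values turned sign: AT5G07340 was at 0.091 as deposited, ATERDJ3B at −0.095 and Cpn60beta2 at −0.21 with array weights, ARLA1A at −0.037 with a floor at a log2 of 5, and ARLA1A at −0.0019 and Cpn60beta2 at −0.37 with the floor at the highest control percentile. Without single arrays AT5G07340 ranged from −0.34 to 0.078, ATERDJ3B from −0.73 to 0.83, Cpn60beta2 from −1.66 to 2.20, ARLA1A from −0.50 to 2.01, AT2G28390 from −0.27 to 1.92, AT4G34270 from −0.73 to 0.094 and AT4G21870, at background, from −0.028 to 2.30. Signal over background limits AT4G21870, ATHSP22.0 and AT1G52560.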
